A study of Sus scrofa with 12 samples.

Results

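MOS, FBXO43 and MAD2L1 hold the meiotic divisions of the oocyte in check, and they were measured here in in vitro matured oocytes of Sus scrofa, the domestic pig. The genes were taken by their symbol in the platform annotation, which gave 1 feature (array spot sequence) for each, 3 features of 45220 and 3 genes of 11916. They were chosen by their measured log ratios on these same arrays, among them the differences between GDNF and control in LG oocytes. Their values on all 12 arrays are therefore a description and carry no test.

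MOS is the kinase that starts the MOS-MAPK cascade, which vertebrate oocytes use to stay at metaphase of the second meiotic division until fertilisation. FBXO43, also called EMI2, inhibits the anaphase-promoting complex and so keeps cyclin B from being destroyed during this arrest. MAD2L1 is the spindle checkpoint protein that binds the activator CDC20 and delays anaphase until chromosomes are attached to the spindle.

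The oocytes came from crossbred prepubertal gilts and belong to a class named LG or a class named SM, which the labels do not spell out. There were 4 groups of 3 arrays: LG GDNF (LG oocytes matured with glial cell line-derived neurotrophic factor, a growth factor that acts through the RET receptor kinase), LG control (LG oocytes without it), SM GDNF (SM oocytes with GDNF) and SM control (SM oocytes without it). All were matured for 44 h in TCM199 with follicular fluid (10%), LH, FSH and EGF, and the cumulus cells were then removed. Every array compared a pool of oocytes with 1 common reference, oocytes pooled from all groups, and each of 3 slides held 1 array of every group.

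The deposited values are log ratios, taken here as log2. A ratio to a reference of oocytes holds no level of its own, so the labelled cell type could not be checked against oocyte markers. The sample carried Cy5 on slide 1 and Cy3 on slides 2 and 3, and whether the authors had turned the ratios to sample over reference is not settled. A higher or lower ratio below is thus higher or lower as deposited and gives no direction of expression. If the ratios are Cy5 over Cy3, slide 1 runs opposite to slides 2 and 3, so values for slides 2 and 3 alone and with slide 1 turned in sign stand beside the main ones. Within any slide, whether 2 genes share a side or are opposed does not depend on this.

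The arrays did not sort by group over all 45220 features. Pairs of arrays of the same group correlated at r = 0.244 to 0.575 and pairs of different groups at -0.0664 to 0.844. The closest 3 arrays, LG GDNF 2, SM GDNF 2 and SM control 2 (the number is the pool), came from 3 groups and correlated at 0.756 to 0.844. All 3 carry pool number 2, as does LG control 2, which correlated with them at 0.15 to 0.206. LG control 2 had the widest spread of ratios, with an SD of 0.871 over features, against 0.454 to 0.547 on the other 11 arrays. With 3 arrays in a group precision is low: fitted differences between groups had a standard error of 0.196 for the median gene.

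MAD2L1 varied most of the 3 genes. Its ratios in LG GDNF oocytes were -0.429 on slide 1, 2.03 on slide 2 and 1.09 on slide 3. In LG control oocytes they were -1.77, -0.332 and -1.16 in the same slide order. LG control was the lowest of the 4 groups on every slide, and its 3 ratios were all below 0. In SM GDNF oocytes MAD2L1 was at 0.858, 0.115 and 1.29, and in SM control oocytes at -0.525, 2.45 and 0.004. SM control thus held the highest ratio of all 12 arrays, with its other 2 ratios below every SM GDNF array. LG control and SM GDNF did not overlap as deposited, and the other pairs of groups did. The SD over the 12 arrays was 1.27, higher than that of 99.3% of all genes.

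FBXO43 ran almost in parallel with MAD2L1. Its ratios on slides 1, 2 and 3 were -0.194, 1.74 and 1.03 in LG GDNF oocytes. In LG control oocytes they were -0.869, 0.179 and -0.746, again the lowest of the 4 groups on each slide. SM GDNF oocytes had 1.11, 0.317 and 1.38, and SM control oocytes 0.03, 2.14 and 0.38. As for MAD2L1, LG control and SM GDNF did not overlap as deposited, and the other pairs of groups did. Of all genes, 12.1% had no overlap between LG control and SM GDNF, and 6.72% had none between LG GDNF and SM control. With slide 1 turned, no pair of groups was free of overlap for either gene. The SD over arrays was 0.948, above that of 98.1% of all genes.

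MOS had a different pattern, and most of its spread rested on 2 arrays. Its ratios on slides 1, 2 and 3 were 0.11, -0.305 and 2.30 in LG GDNF oocytes. They were 0.60, 0.338 and 3.52 in LG control oocytes, the highest of the 4 groups on each slide. SM GDNF oocytes had 0.438, 0.195 and -0.372, and SM control oocytes -0.207, -0.328 and 0.473. Both LG arrays of slide 3 lay far above the rest, while the other 10 arrays stayed between -0.372 and 0.60. The SD was 1.17 over 12 arrays and 0.37 over those 10. On LG GDNF 3 the MOS ratio was above that of 99.9% of genes and on LG control 2 above that of 99.3%.

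**Figure D1:**
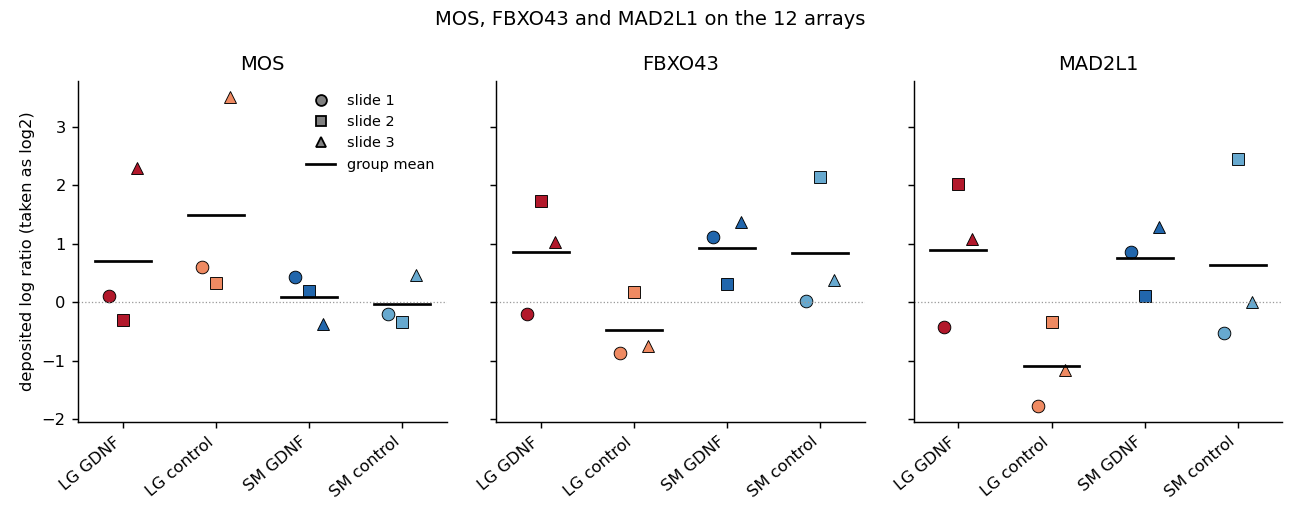
Deposited log ratio (vertical axis, taken as log2) of MOS, FBXO43 and MAD2L1 in the 4 groups, with 1 point for each array, shaped by slide, and a bar at the group mean. LG control has the lowest FBXO43 and MAD2L1 ratio and the highest MOS ratio on each slide, and MOS reaches 3.52 on LG control 2 and 2.30 on LG GDNF 3.

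LG control stood at an end of the 4 groups on 3 of 3 slides for each of the 3 genes, at the low end for FBXO43 and MAD2L1 and at the high end for MOS. Over all genes, 6.81% had LG control at the same end on 3 of 3 slides, 3.58% at the low and 3.24% at the high end. These shares come from the arrays by which the genes were picked, and the count of 3 is a description. With slide 1 turned, LG control would stand at opposite ends on slide 1 and on slides 2 and 3.

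The group means put these patterns in order. For MAD2L1 they were 0.897 ± 1.24 in LG GDNF, -1.09 ± 0.724 in LG control, 0.756 ± 0.596 in SM GDNF and 0.644 ± 1.59 in SM control (SD, n = 3 each). LG GDNF, SM GDNF and SM control differed by less than the spread between their arrays. LG control had the lowest mean, and its arrays overlapped with those of LG GDNF and SM control but not with those of SM GDNF. With slide 1 turned the means were 1.18 in LG GDNF, 0.0937 in LG control, 0.184 in SM GDNF and 0.994 in SM control, so LG control was then close to SM GDNF.

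FBXO43 also had its lowest mean in LG control. Its means were 0.857 ± 0.978 in LG GDNF, -0.479 ± 0.573 in LG control, 0.936 ± 0.552 in SM GDNF and 0.849 ± 1.13 in SM control (SD, n = 3 each). The other 3 groups could not be told apart within this spread. With slide 1 turned the means were 0.986, 0.101, 0.195 and 0.829 in that order of groups.

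MOS means, from high to low, were in the order LG control, LG GDNF, SM GDNF, SM control. They were 0.70 ± 1.40 in LG GDNF, 1.49 ± 1.77 in LG control, 0.0871 ± 0.416 in SM GDNF and -0.0208 ± 0.432 in SM control (SD, n = 3 each). No neighbours in this order differed by more than the spread between arrays. The large SDs of the LG groups come from their slide 3 arrays.

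The first question was how oocytes matured with GDNF compared with control oocytes of the same class. In LG oocytes, GDNF minus control was 1.35 on slide 1, 2.37 on slide 2 and 2.25 on slide 3 for MAD2L1. FBXO43 had 0.675, 1.56 and 1.77 on these slides. MOS lay on the other side, with -0.49, -0.643 and -1.23. FBXO43 and MAD2L1 were thus on one side and MOS on the other on each slide, whichever way the ratios run. All 3 genes kept their side on 3 of 3 slides as deposited, which 30.1% of all genes did, and 53.4% did so on slides 2 and 3 alone. These differences had a part in the choice of the genes, so nothing is read from that count. The arrays of both groups overlapped for each of the 3 genes, while 10.6% of all genes had no overlap here.

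Limma with the slide as a block gave differences between GDNF and control in LG oocytes of 1.99 for MAD2L1 (standard error 0.621), 1.34 for FBXO43 (0.508) and -0.79 for MOS (0.65). On slides 2 and 3 alone these were 2.31, 1.67 and -0.93, and with slide 1 turned 1.09, 0.89 and -0.46. No gene was called at an adjusted p under 0.05 in this comparison (0.0% of 11916 genes), and 903 had an unadjusted p under 0.05. The size of the fitted MOS difference depended on the LG arrays of slide 3. It was -0.04 without LG control 2, with LG GDNF 3 kept, and -1.24 without LG GDNF 3. After quantile normalization between arrays it was -0.03. Slides 1 and 2, which hold neither of these arrays, had -0.49 and -0.643.

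In SM oocytes the 3 slides disagreed. GDNF minus control was 1.38 on slide 1, -2.34 on slide 2 and 1.29 on slide 3 for MAD2L1, and 1.08, -1.82 and 0.999 for FBXO43. MOS had 0.645, 0.523 and -0.844. Each of these genes changed side between slides, while 18.6% of all genes kept theirs on 3 of 3 slides. None shared a side even on slides 2 and 3, where 37.1% of all genes did. For each, the arrays of both groups overlapped, and 7.16% of all genes had no overlap. The slide 2 values rest on SM control 2, with the highest FBXO43 and MAD2L1 ratios of the study. The fitted differences were 0.11 for MAD2L1 (standard error 0.621), 0.09 for FBXO43 (0.508) and 0.11 for MOS (0.65), each smaller than its error. Without SM control 2 they were 0.81, 0.58 and 0.30. On slides 2 and 3 alone they were -0.52, -0.41 and -0.16. In this comparison 0.0% of the genes were called, and 279 had an unadjusted p under 0.05.

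**Figure D2:**
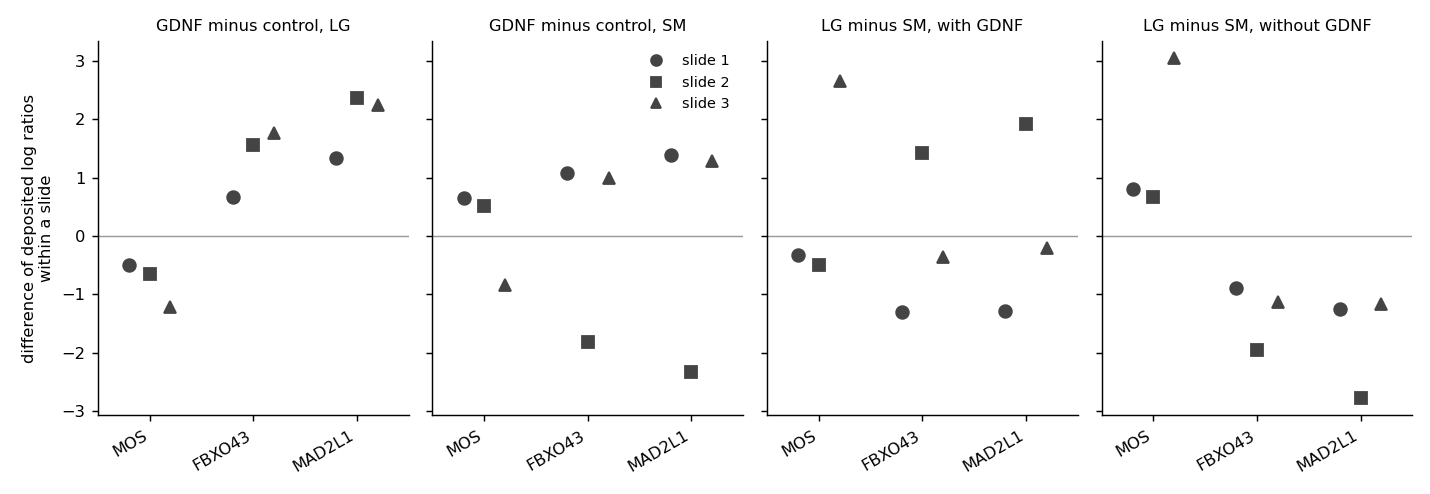
Differences of deposited log ratios within a slide (vertical axis, taken as log2) for MOS, FBXO43 and MAD2L1, with 1 point for each slide and a panel for each comparison. Points of a gene share a side in the panels of GDNF minus control in LG and of LG minus SM without GDNF, and lie on both sides of 0 in the other panels.

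Without GDNF, the differences between the classes had the signs opposite to those of GDNF minus control in LG. LG minus SM was -1.25, -2.79 and -1.17 on slides 1, 2 and 3 for MAD2L1, and -0.899, -1.96 and -1.13 for FBXO43. For MOS it was 0.807, 0.666 and 3.05. The 3 genes kept their side on 3 of 3 slides, as did 26.2% of all genes, and 46.1% on slides 2 and 3 alone. Their arrays overlapped between both groups, while 9.38% of all genes had no overlap. This comparison uses the same LG control arrays as GDNF minus control in LG, so the values of both move together by construction.

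The fitted differences between LG and SM without GDNF were -1.73 for MAD2L1 (standard error 0.621), -1.33 for FBXO43 (0.508) and 1.51 for MOS (0.65). On slides 2 and 3 alone they were -1.98, -1.54 and 1.86, and with slide 1 turned -0.90, -0.73 and 0.97. Without SM control 2 those of MAD2L1 and FBXO43 were -1.04 and -0.84. That of MOS was 0.76 without LG control 2. Over all genes 0.0% were called in limma, and 846 had an unadjusted p under 0.05.

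With GDNF, no side held across slides between the classes. LG minus SM was -1.29, 1.92 and -0.208 for MAD2L1 on slides 1, 2 and 3, and -1.31, 1.42 and -0.353 for FBXO43. MOS had -0.328, -0.50 and 2.67. As deposited, 18.3% of all genes kept their side on 3 of 3 slides, and none of these 3 did. None did on slides 2 and 3 alone, against 45.5% of all genes. The groups overlapped for all 3, while 6.55% of all genes had no overlap. The fitted differences were 0.14 for MAD2L1 (standard error 0.621), -0.08 for FBXO43 (0.508) and 0.61 for MOS (0.65). Without LG GDNF 3 that of MOS was 0.16, and without SM GDNF 2 it was -0.30. Limma called 0.0% of the genes, with 287 at an unadjusted p under 0.05.

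The difference between the classes in their response to GDNF was fitted as an interaction, the LG difference minus the SM difference. It was 1.88 for MAD2L1 (standard error 0.878), 1.25 for FBXO43 (0.719) and -0.89 for MOS (0.919). By slide, MAD2L1 had -0.036 on slide 1, 4.70 on slide 2 and 0.958 on slide 3, and FBXO43 had -0.406, 3.38 and 0.773. Slide 2 carried most of both. There GDNF minus control in SM was -2.34 for MAD2L1 and -1.82 for FBXO43, on the other side from slides 1 and 3. In LG it was 2.37 and 1.56 on slide 2, close to the 2.25 and 1.77 of slide 3. SM control 2 and LG GDNF 2, both on slide 2, were the arrays with the highest ratios. MOS had -1.14, -1.17 and -0.381 and kept its side, as did 20.6% of all genes. On slides 2 and 3 all 3 genes kept their side, as did 43.9% of all genes. Without SM control 2 the interaction was 1.18 for MAD2L1 and 0.76 for FBXO43, and without SM GDNF 3 it was 0.94 and 0.47. That of MOS ranged from -1.81 without SM GDNF 2 to -0.15 without LG control 2. In this comparison 0.0% of the genes were called, and 499 had an unadjusted p under 0.05.

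FBXO43 and MAD2L1 were both chosen with their ratios on these arrays known, so their closeness is not independent of that choice. Over the 12 arrays their ratios correlated at r = 0.991 (Spearman's rho = 0.979), given as a description, since both genes share the arrays, the reference and the amplification. After centring within slides r was 0.989, a measure that stays the same if all arrays of a slide are turned. Without SM control 2 and LG GDNF 2, the arrays farthest from the FBXO43 median, the uncentred r was 0.983. Without the 3 arrays that resemble each other most the centred r was 0.982. MAD2L1 covered the wider range: its ratio changed by 1.33 for a change of 1 in FBXO43.

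By likeness to MAD2L1, FBXO43 had rank 3 among all genes. Of 11915 other genes, 65 (0.546%) had a slide-centred r of 0.95 or more with MAD2L1, and 44 (0.369%) with FBXO43. The 3 highest FBXO43 and MAD2L1 ratios were those of LG GDNF 2, SM GDNF 2 and SM control 2. They lay between 1.29 and 2.45 for MAD2L1, against -1.77 to 1.09 on the other 9 arrays. For FBXO43 they lay between 1.38 and 2.14, against -0.869 to 1.11. The part of whatever these arrays share in the pattern was not tested. Without them the difference between GDNF and control in LG was 1.48 for MAD2L1 and 0.94 for FBXO43. In the same setting LG minus SM without GDNF was -0.89 for MAD2L1 and -0.73 for FBXO43, and the interaction was 0.66 and 0.41, each smaller by more than 1.5 times than with all arrays.

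MOS did not follow the other members. Its slide-centred r was -0.48 with MAD2L1 and -0.539 with FBXO43, and without both LG arrays of slide 3 it was -0.647 and -0.614. MOS and MAD2L1 lay on the same side of their slide means on 4 of 12 arrays, while FBXO43 and MAD2L1 did so on 10 of 12.

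**Figure D3:**
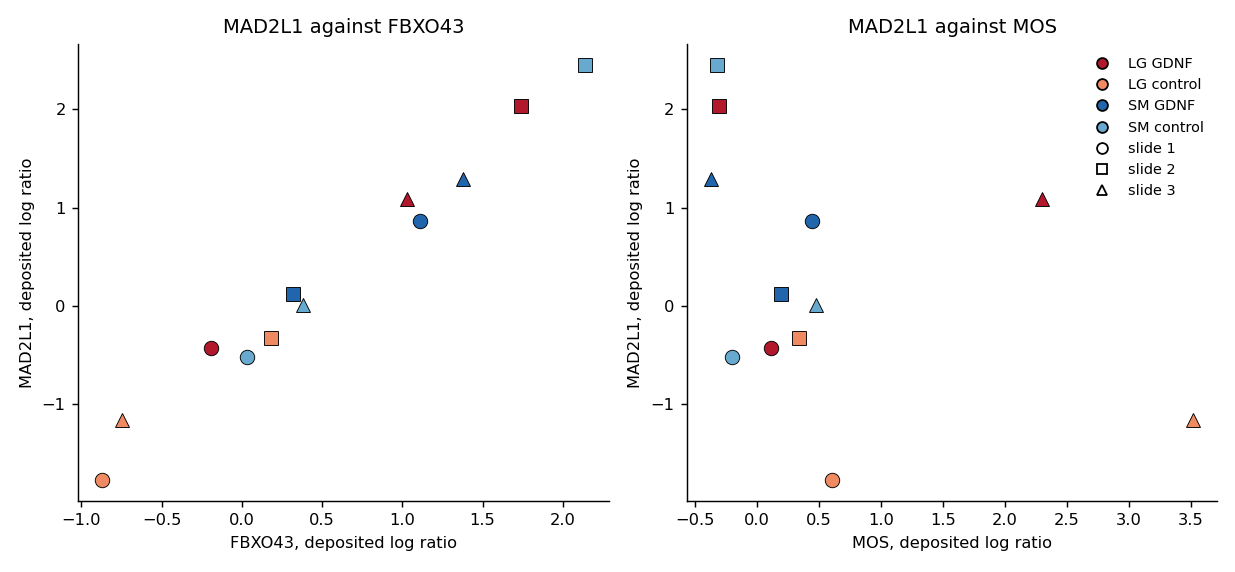
MAD2L1 deposited log ratio (vertical axes) against that of FBXO43 (left) and MOS (right), with 1 point for each of the 12 arrays, coloured by group and shaped by slide. FBXO43 and MAD2L1 lie near a line (r = 0.991), and the 2 LG arrays of slide 3 stand apart along the MOS axis.

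The genes most like each member were ranked by the slide-centred r over 12 arrays, leaving out the 3 members themselves, whose own r of 0.989 between FBXO43 and MAD2L1 is given above, and genes with placeholder names. For MAD2L1 these were geminin (GMNN, 0.991), FBXO33 (0.99), CETN2 (0.987), KATNA1 (0.986) and DNAJB4 (0.986). For FBXO43 they were CETN2 (0.99), GMNN (0.989), DNAJB4 (0.988), FBXO33 (0.986) and GTF2B (0.983). Without the 3 arrays most alike, these correlations were between 0.973 and 0.99 for MAD2L1 and between 0.978 and 0.986 for FBXO43. By Spearman's rho 2 of the 5 genes remained among the closest 5 for either gene.

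For MOS the closest genes were RBFOX1 (0.977), ADD3 (0.976), ARID4A (0.975), WDR20 (0.973) and C7H6orf106 (0.972). Without both LG arrays of slide 3 they were at 0.759 to 0.874. By Spearman's rho 1 of the 5 remained among the closest 5. MOS also followed the first principal component, the main shared axis of all slide-centred ratios, which held 31.9% of their variance. The r with it was -0.908 for MOS, 0.589 for FBXO43 and 0.533 for MAD2L1, with the sign set by MAD2L1. The median size of this r over all genes was 0.282. A slide-centred r of 0.9 or more with MOS was found for 80 genes (0.671%), against 200 (1.68%) with MAD2L1.

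The slide and the group accounted for unlike shares of the 3 genes. The group took 44.2% of the sum of squares of MAD2L1, 42.1% of that of FBXO43 and 28.4% of that of MOS, against a median of 23.2% over all genes. The slide took 26.6%, 23.3% and 34.1%, against a median of 18.7%. The group shares rest on the same arrays that led to these genes.

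Of 26 genes listed as direct partners of the 3 proteins, 17 were measured. The partners of MOS in its cascade were read from a list of 19 genes, of which 15 were measured. Apart from MOS and FBXO43, 0 of 13 were called in any comparison. In LG oocytes the median difference between GDNF and control was -0.05 over these 13, with 5 above and 8 below 0, against -0.02 over all genes. Of all genes, 5540 lay above and 6371 below 0 in this comparison. MAP2K1, the kinase that MOS phosphorylates, had 0.50 (standard error 0.157). Its ratios on slides 1, 2 and 3 were -0.208, 0.462 and 0.22 in LG GDNF oocytes and -0.469, -0.134 and -0.436 in LG control oocytes, with all 3 of LG control below 0. MAP2K1 had a slide-centred r of 0.95 with FBXO43, 0.949 with MAD2L1 and -0.60 with MOS. Its 5 features, averaged here, correlated between -0.203 and 0.911 over arrays. Of the kinases downstream of the cascade, RPS6KA1 had -0.47 (standard error 0.21), RPS6KA2 -0.04 (0.155) and RPS6KA3 0.32 (0.252). CAMK2G, the calcium-dependent kinase that ends the arrest in mouse eggs, had -0.05. Its 8 features correlated between -0.718 and 0.722.

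FBXO43 and its paralog FBXO5 both inhibit the anaphase-promoting complex. FBXO5 did not share the range of FBXO43: it lay between -0.123 and 0.842, with a slide-centred r of 0.40. Its 2 features correlated at -0.148, so its mean stands for spots that disagree. Of 19 listed genes of the complex, its activators and its ubiquitin-conjugating enzymes, 11 were measured and 0 were called. The median difference between GDNF and control in LG was 0.15, with 7 above and 4 below 0, against 5540 above and 6371 below over all genes. The subunit ANAPC10 had 0.56 (standard error 0.242) and an r of 0.924 with FBXO43, while the subunit CDC27 had 0.16 and an r of -0.166. CDC20, the activator that MAD2L1 binds, had -0.51 (0.34) and an r of -0.783 with MAD2L1.

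Of 23 listed spindle checkpoint genes 11 were measured, and apart from MAD2L1 0 of 10 were called. Their median r with MAD2L1 was 0.52, against -0.0326 over all genes. Lists read below had similar medians: 0.482 for the maturation-promoting factor list and 0.502 for the securin, separase and cohesin list. BUB1B, the checkpoint kinase-like protein, had an r of 0.842 and a difference between GDNF and control in LG of 0.79 (standard error 0.514). Its partner BUB3 had an r of 0.569 and a difference of 0.21 (0.242), and the kinase TTK an r of -0.346 and -0.01, with 4 features that correlated between -0.319 and 0.391. NDC80, the kinetochore protein at the microtubule attachment site, was singled out after its values were seen. It had an r of 0.979 with MAD2L1, a difference of 1.54 (0.585) in that comparison and -1.21 (0.585) between LG and SM without GDNF. The 10 genes had a median difference of 0.20 between GDNF and control in LG, 8 above and 2 below 0. Between LG and SM without GDNF the median was -0.23, with 2 above and 8 below 0. Over all genes, 5540 were above and 6371 below 0 in the first comparison, and 6050 and 5865 in the second. Both comparisons use the same LG control arrays, so these counts move together by construction.

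Maturation-promoting factor, the complex of CDK1 and cyclin B that the arrest keeps active, was represented by 14 of 17 listed genes, with 0 called. The median difference between GDNF and control in LG was 0.25, with 10 above and 4 below 0, against 5540 above and 6371 below over all genes. CDK1 had 0.23 (standard error 0.29) and an r of 0.349 with MAD2L1. The oocyte kinase WEE2, which inhibits CDK1, had 0.72 (0.343) and an r of 0.654. Among securin, separase and cohesin genes, 6 of 9 were measured and 0 called. Their median was 0.58, with 6 above and 0 below 0, and all 6 use the same LG control arrays. The differences ran from 0.0085 for REC8 (standard error 0.144) to 2.17 for ESPL1 (1.14), whose lowest ratio was -5.59. Securin (PTTG1) itself had 0.28 (0.201) and an r of 0.288.

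Upstream of MOS, the list of cytoplasmic polyadenylation held 11 measured genes of 16, with 0 called. The median r of these 11 genes with MOS was 0.13, against 0.00667 over all genes. CPEB1, the protein that controls translation of stored Mos mRNA in Xenopus and mouse oocytes, had an r of 0.947 with MOS. Its ratio was 0.266 on LG GDNF 3 and 0.606 on LG control 2, and between -0.139 and 0.021 on the other 10 arrays. Without both LG arrays of slide 3 the r was 0.601, and its 3 features correlated at 0.122 to 0.67. The list of prophase arrest by cAMP had 11 of 12 genes measured and 0 called. Its members GPR3, the receptor that keeps cAMP high, and PDE3A, the phosphodiesterase that lowers it, had an r of -0.352 and 0.165 with MOS.

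**Figure D4:**
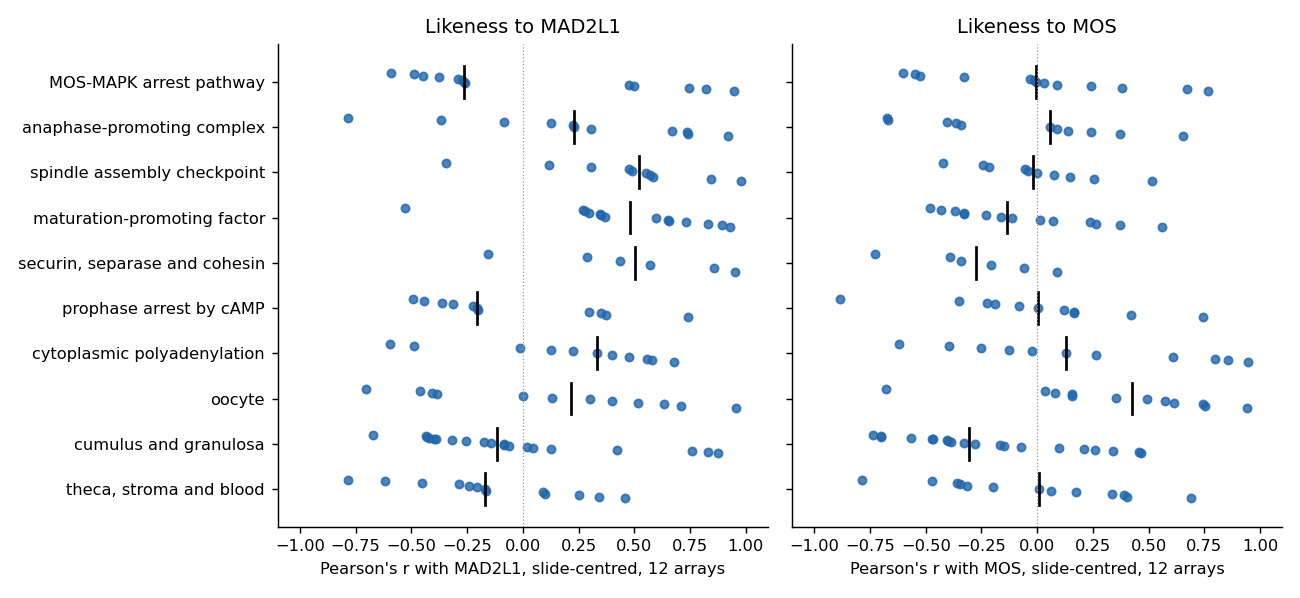
Pearson's r of each listed gene with MAD2L1 (left) and with MOS (right), over 12 arrays after centring within slides, with 1 point for each gene, the members left out, and a bar at the median of each list. The median r with MAD2L1 is 0.52 for the spindle checkpoint list, 0.502 for the securin, separase and cohesin list and 0.482 for the maturation-promoting factor list. It is -0.263 for the MOS-MAPK list, and every list spreads widely.

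Markers of other cell types were read as lists, with 0 called in any comparison. The median of 20 cumulus and granulosa markers lay between -0.204 and 0.119 on LG GDNF arrays, between -0.0676 and 0.22 on LG control arrays, between -0.0544 and 0.0797 on SM GDNF arrays and between -0.122 and 0.148 on SM control arrays. Single markers differed more than these medians. Fitted differences of the 20 markers ran from -0.958 to 0.694 for GDNF against control in LG. They ran from -1.33 to 0.29 for LG against SM with GDNF. The median r of the 20 markers was -0.114 with MAD2L1 and -0.304 with MOS. Theca, stroma and blood markers had a median r of -0.171 with MAD2L1 and 0.00786 with MOS over 13 genes. The 12 oocyte genes had a median r of 0.423 with MOS, and their median ratio was 0.487 on LG GDNF 3 and 0.841 on LG control 2, the arrays of high MOS. It was about as high on LG GDNF 2 (0.478) and SM control 2 (0.485), where MOS was at -0.305 and -0.328. Their part in the MOS ratios was not tested.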

How the data were processed

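The deposited log2 ratios (2-colour arrays, pooled oocytes against a pooled oocyte reference) were used as the authors deposited them. No source used here states the log base, the numerator or the normalization, and log2 was assumed. The platform annotation names a gene for 18121 of 45220 features, and old symbols were updated through RefSeq names. The mean over features of 1 gene was taken, for 11916 genes in all and 3326 with several features; each of MOS, FBXO43 and MAD2L1 has 1. Intensities were not used here, so detection is unknown, and the number of arrays limits the precision.

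Groups were compared in 1 model over 12 arrays with the slide as a block (limma 3.58.1 in R 4.3.3). Benjamini-Hochberg adjustment was over all genes, at 0.05. On simulated data the model was required only to estimate planted differences at their size on average. The simulated noise was independent between genes and arrays, unlike these correlated arrays, so it does not give the power of the model here. Dye and slide cannot be told apart. The design text gives 9 independent collections per condition, 3 pooled on each array, while the sample labels give a number per pool of 2; what an array pools, and so what n = 3 stands for, is not settled. No source used here ties arrays to animals, and p-values measure the spread between these arrays. The titles of LG GDNF 1 and 2 carry the word Clean, which is not explained.

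The members, the gene lists and the rules were chosen with earlier results of these data known. Named genes were the members, the 5 genes most alike each, and the partner genes; likeness is Pearson's r after centring within slides. NDC80 and RPS6KA3 were added after their values were seen. Pool numbers recur across groups, and the labels do not say that a number marks a shared collection, so arrays were not paired by it. Alternatives were other slide treatments, scalings, feature rules, array weights and left-out arrays.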

Additional observations from a re-analysis of the deposited data

How the results depend on the processing

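No gene was called by limma in any comparison under any of the 24 alternatives. With features not averaged, the counts are of features and cannot be set beside counts of genes. In that setting 3401 features had an unadjusted p under 0.05 for GDNF against control in LG, and 3412 for LG against SM without GDNF. Under the other alternatives, genes with an unadjusted p under 0.05 numbered 476 to 2045 and 461 to 1289 in that order of comparisons. In these comparisons and in the class difference the 3 members kept their sign under each alternative. In SM, GDNF minus control changed sign with slide 1 turned (MOS -0.32, FBXO43 -0.63, MAD2L1 -0.81), with slides 2 and 3 only (-0.16, -0.41, -0.52) and with array weights (MOS -0.20). LG minus SM with GDNF changed sign for FBXO43 with slide 1 turned (0.79) and slides 2 and 3 only (0.54), for MAD2L1 with array weights (-0.12), for MOS and MAD2L1 without the 3 arrays most alike (-0.36 and -0.23) and for MOS without both LG arrays of slide 3 (-0.18); the last pair of settings was chosen after seeing the data. Leaving out each array in turn gave, for GDNF minus control in SM, -0.36 to 1.02 (MOS), -0.38 to 0.87 (FBXO43) and -0.47 to 1.05 (MAD2L1), and for LG minus SM with GDNF -0.30 to 1.08, -0.86 to 0.39 and -0.80 to 0.72. The cause was not tested. Deviations from group means correlated at -0.45 to 0.588 (median 0.114) between arrays of the same pool number and at -0.473 to 0.403 (median -0.0922) otherwise; for slides the medians were 0.0869 and -0.0913. The closest array of another group had the same number for 8 of 12 arrays and lay on the same slide for 8 of 12. These counts come from the data, not the design, and do not set the pool number apart from the slide. With the pool number as a replicate block in place of the slide 0 genes were called, and 955 had an unadjusted p under 0.05 for GDNF against control in LG. Signal over background was not analysed here.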
